A study of Mus musculus with 6 samples.

Results

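The Wnt ligands, receptors and antagonists described here were 57 of the 18193 genes measured in ventricles of mice that overexpress COUP-TFII. The rule that picks them uses gene symbols and no measured value, though the group was proposed with earlier results of these data known. Members were the genes whose symbol begins with Wnt, Fzd, Dkk, Sfrp, Axin or Tcf7, together with Lrp5, Lrp6, Lef1, Wif1, Frzb, Dvl1 to Dvl3, Apc, Porcn, Rspo1, Rspo3, Ror1 and Ror2. They were read from 112 of the 34945 probe sets annotated to exactly 1 gene symbol. By role they comprised 19 ligands, 14 receptors and coreceptors, 10 secreted antagonists, 3 genes for R-spondins and Porcn, 6 genes of the Dvl, Axin and Apc group and 3 Tcf and Lef factors. Dkk3 is counted among the antagonists by the prefix of its symbol. The prefix rule also brought in Dkkl1, which resembles the Dkk genes, and Fzd10os, an antisense transcript at the Fzd10 locus. Tcf7 itself was not analysed here.

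Whole ventricles of 3 CTRL and 3 OE mice were profiled on 6 Affymetrix mouse genome arrays. CTRL mice had the genotype Myh6-MerCreMer, a Cre recombinase driven by a cardiomyocyte promoter and switched on by tamoxifen. OE mice carried CAG-S-COUP-TFII in addition, a transgene from which Cre releases COUP-TFII, a nuclear receptor encoded by Nr2f2. All 6 mice were of the 129SvEv/C57Bl6/J mixed strain. All received tamoxifen at 40 mg/kg/day on 3 days from 2 months of age, so Cre and tamoxifen were common to both groups. Tissue was taken 16 days after dosing began, at an age given as 2.5 months in the labels and as 2 months in the array methods. The promoter limits Cre to cardiomyocytes, while RNA came from whole ventricles, so the arrays read all cell types of the tissue together. In such bulk tissue, fewer cells of a type and less RNA per cell cannot be told apart.

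Wnt proteins are secreted lipid-modified ligands. They bind Frizzled receptors and the coreceptors Lrp5 and Lrp6, and the cytoplasmic Dvl proteins then restrain a complex of Axin, Apc and kinases that otherwise marks β-catenin for destruction. Stabilised β-catenin acts in the nucleus with Tcf and Lef factors, while branches through Ror receptors act on cell polarity and movement without it. Secreted antagonists act outside the cell: Sfrp, Frzb and Wif1 proteins bind the ligands, and Dkk1, Dkk2 and Dkk4 bind the coreceptors. In the adult heart the pathway is largely quiet at rest and is known for its part in fibroblast activation and scar formation after injury.

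The secreted antagonists held the largest changes among the members. Sfrp2, Frzb and Dkk3 were 3.72- to 4.13-fold higher in OE ventricles, Sfrp1 was 1.9-fold higher and Wif1 was 3.45-fold lower. Among receptors Fzd2 rose 1.69-fold, and no other receptor or coreceptor passed the test. Wnt4, Wnt6, Wnt11, Dvl3, Tcf7l1, Tcf7l2 and Dkkl1 fell, each by 1.19- to 1.4-fold. A gene is said here to have risen or fallen where its adjusted p from limma was below 0.05, with adjustment over all 18193 genes.

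Of the 57 members 5 rose, 8 fell and 44 did not pass the test. The share called among members was 22.8%, against 26.7% of all genes tested. In the separate directions 14.9% of all genes rose and 11.8% fell. With each array centred on its ribosomal protein genes, which moves the median change of all genes to −0.23, the split was 5 members risen and 33 fallen, against 1377 and 8757 of all genes. As deposited, 39 of the 42 measured ribosomal protein genes had a positive change, with a median of 0.21. Of these 42 genes 16 rose and 1 fell, so the centring itself shifts other genes downwards. The median change of the members was −0.09 on the log2 scale, beside −0.03 for all genes, and the median size of a change regardless of sign was 0.15 for members and 0.17 for all genes. The 3 OE arrays lay wholly outside the range of the 3 CTRL arrays for 25 members, above it for 7 and below it for 18. Of all genes 22.0% lay wholly above, 23.6% wholly below and 45.6% on either side. For the other 32 members the groups overlapped.

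**Figure D1:**
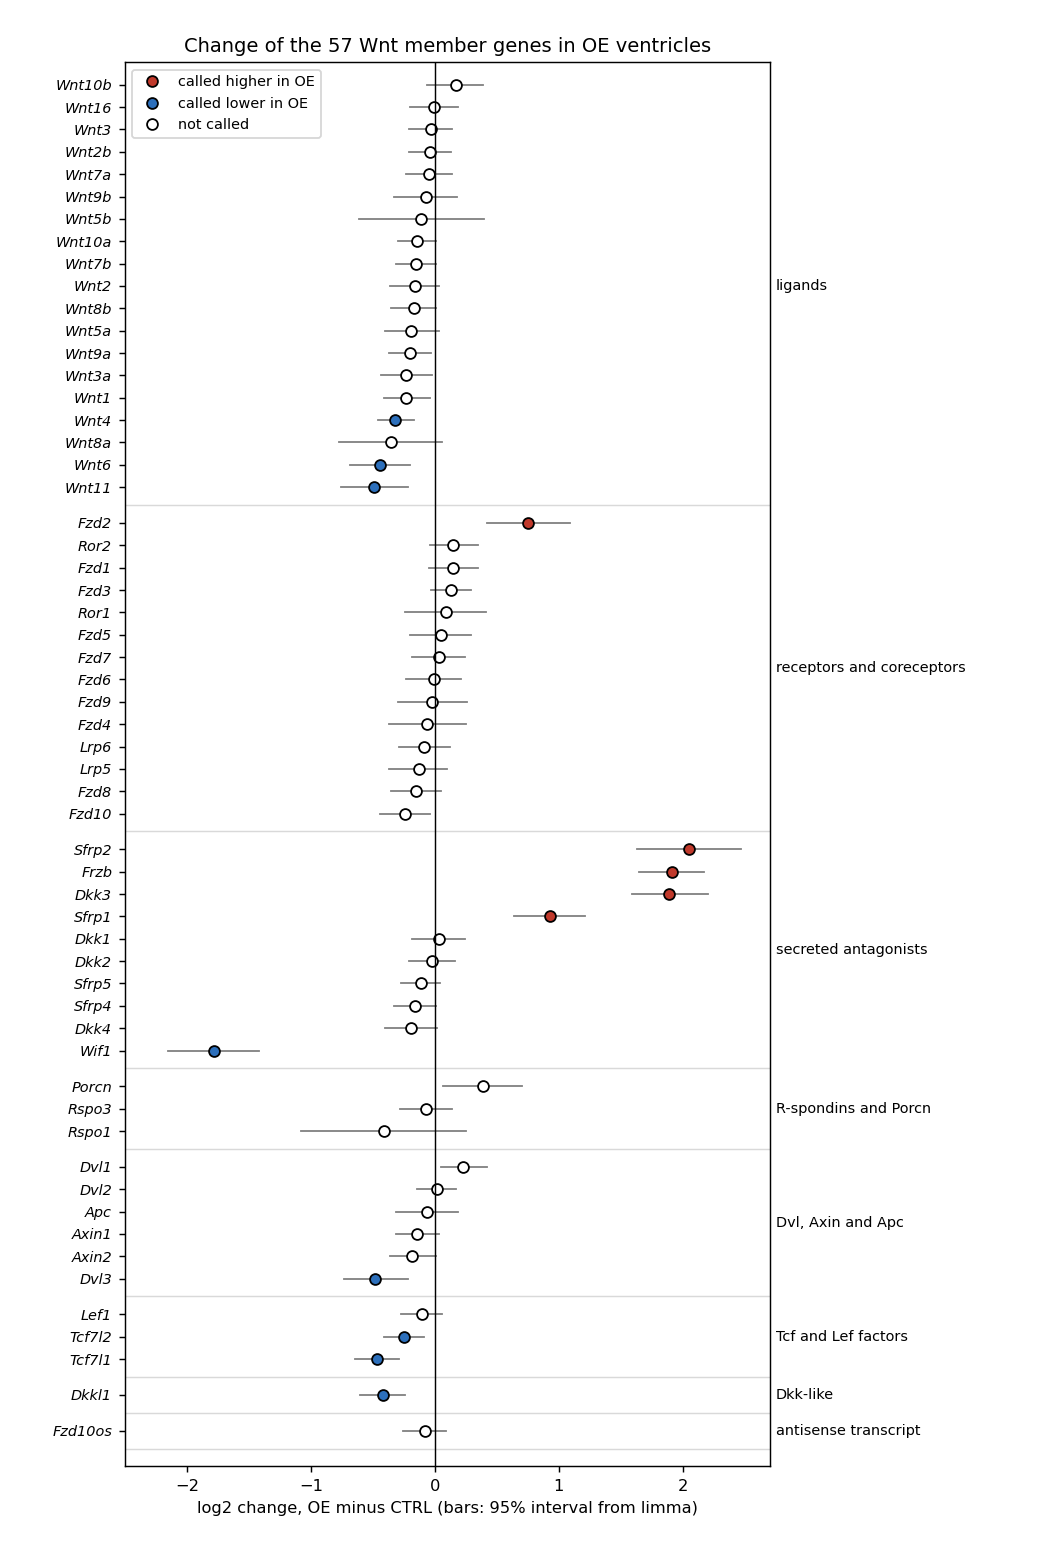
Log2 change of OE minus CTRL for each of the 57 member genes, grouped by role, with bars for the 95% interval from limma and colour for the call (3 arrays per group). Sfrp2, Frzb and Dkk3 lie near a change of 2 and Wif1 at −1.78, while the members that were not called lie between −0.41 and 0.39.

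Every value is a log2 difference from a probe set's own median across the arrays. No expression level remains, and neither the level of one gene against another nor the tissue itself could be checked from them. Root mean square distances over genes were 0.194 to 0.233 between arrays of one group and 0.375 to 0.427 between groups. Nr2f2, the overexpressed gene, was read by 6 probe sets. Of these 1 was 11.2-fold higher in OE (log2 change 3.49, adjusted p = 2.6e-05) and the other 5 changed by −0.34 to −0.13 without passing the test. The mean over all 6 was 0.38 higher (SE 0.12, adjusted p = 0.0466), with every OE array above the CTRL arrays.

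None of the 19 Wnt ligands rose and 3 fell in limma, beside 14.9% risen and 11.8% fallen of all genes. Of the 19 ligand changes 18 were negative in sign, with a median of −0.16. Of all genes 10151 of 18193 changes were negative. Whether a ligand was expressed above background cannot be read from these values, which hold no level. With arrays centred on the ribosomal protein genes, which were themselves mostly higher in OE, 15 ligands fell and all 19 changes were negative. Under that centring 8757 of all 18193 genes fell. Of the ligands 6 had an unadjusted p below 0.05 in limma, all with a negative change. Of all 18193 genes 3613 were lower and 3712 higher at that limit. In a one-way analysis of variance, the test named in the methods, no ligand rose and 1 fell, beside 1437 and 1125 of all 18193 genes. The OE arrays lay entirely below the CTRL arrays for 9 ligands and above them for none, beside 23.6% and 22.0% of all genes. Wnt4, a ligand best known from kidney and gonad development, read 0.09, 0.10 and 0.06 in CTRL 1 to 3 and −0.27, −0.24 and −0.19 in OE 1 to 3. Both groups were tight in this mean over probe sets, and the fall was 1.25-fold (log2 change −0.32, SE 0.06, adjusted p = 0.00926). The single probe sets were less tight in OE. One read −0.19, −0.03 and −0.30 (SD 0.14) and the other −0.35, −0.45 and −0.08 (SD 0.19), with OE 3 lowest in the former and highest in the latter. Wnt6, expressed in epithelia of the embryo, read 0.21, 0.25 and 0.15 in CTRL and −0.15, −0.09 and −0.46 in OE. OE 3 was the lowest array, and Wnt6 fell by 0.44 on the log2 scale (SE 0.10, adjusted p = 0.0178). Wnt11, a ligand of the branches without β-catenin that takes part in heart development, read 0.16, 0.09 and 0.37 in CTRL and −0.29, −0.47 and −0.09 in OE. It fell by 0.49 (SE 0.12, adjusted p = 0.0185), and CTRL 2 and OE 3 lay nearest to each other.

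Single arrays decided some of these calls. Without CTRL 1 or CTRL 2 the adjusted p of Wnt6 was 0.0526 or 0.0561, and without OE 1 or OE 2 that of Wnt11 was 0.0583 or 0.052. In the one-way analysis of variance the adjusted p was 0.0822 for Wnt6 and 0.0915 for Wnt11. Wnt4 passed in that test and whichever array was left out. The 16 ligands that were not called changed by −0.35 to 0.17. Nearest to the threshold were Wnt1, at −0.23 (95% interval −0.41 to −0.04, adjusted p = 0.076), and Wnt9a, at −0.20 (−0.37 to −0.03, adjusted p = 0.0841). Wnt1 is the founding ligand of the family and Wnt9a is known from joint formation. For both, all OE arrays were below all CTRL arrays, and without OE 3 Wnt1 passed at −0.29 with adjusted p = 0.0417. Without OE 3 the number of ligands with a negative change was 15. Several ligand genes lie next to each other in the genome, and of these neighbours Wnt6 fell while Wnt10a changed by −0.14 without passing the test.

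RefSeq windows of 250 bases before the transcription start (build GRCm38.p6, gene strand) were read for the called members. A window was in the table for 10 of the 13, and none was used for Sfrp1, Dkk3 or Fzd2. Each was searched on both strands for words known to bind Tcf and Lef factors (CTTTG followed by AT, TT, AA or TA) and for AGGTCA, the hexamer of nuclear receptors such as COUP-TFII. The Tcf and Lef words stood in 14.8% of all 32851 windows and AGGTCA in 14.0%. Of the 12 windows of called members, 2 held a Tcf or Lef word and 1 held AGGTCA. A direct repeat of that hexamer with 1 base between the copies was in 11 of all windows (0.0335%), which count for the hexamer too, and in none of the 45 windows of 38 members. Such a match is a description of the letters and not evidence of binding. Wnt11 is shown because its first start held a match, on the other strand with its first base 51 bases before the start (chr7:98834862-98835111, plus strand; capitals mark the match).
Wnt11: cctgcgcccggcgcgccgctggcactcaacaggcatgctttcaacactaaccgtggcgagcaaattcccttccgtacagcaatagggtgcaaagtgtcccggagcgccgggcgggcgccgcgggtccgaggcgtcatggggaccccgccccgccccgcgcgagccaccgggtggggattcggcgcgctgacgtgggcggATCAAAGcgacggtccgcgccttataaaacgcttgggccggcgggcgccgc

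Fzd2 alone among the 14 receptors and coreceptors passed the test, or 7.14% called against 26.7% of all genes. This Frizzled receptor, which can signal with or without β-catenin, read −0.53, −0.43 and −0.13 in CTRL and 0.61, 0.44 and 0.13 in OE. The groups did not overlap, but CTRL 3 and OE 3 lay close to each other. The rise was 0.75 on the log2 scale (SE 0.14, 95% interval 0.42 to 1.09, adjusted p = 0.00856). It passed whichever array was left out, while in the one-way analysis of variance its adjusted p was 0.0714.

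The remaining 13 receptors and coreceptors changed by −0.24 to 0.15, with 7 of them negative and 6 positive. Their median change was −0.01. Nearest to the threshold was Fzd10, at −0.24 (−0.44 to −0.04, adjusted p = 0.0723), which passed without CTRL 2 at −0.31 and adjusted p = 0.0375. Fzd3, a receptor known for axon guidance, followed at 0.13 (−0.03 to 0.29, adjusted p = 0.196). The sign of the Fzd3 change was negative, at −0.07, when arrays were centred on the ribosomal protein genes. Lrp5 and Lrp6, the coreceptors of the β-catenin branch, and Ror1 and Ror2, the receptors of the branch without it, were all among the genes that did not pass.

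Of the 10 measured antagonists 4 rose, 1 fell and 5 did not pass, beside 14.9% risen and 11.8% fallen of all genes. The median size of the antagonist changes was 0.56, beside 0.17 for all genes. With arrays centred on the ribosomal protein genes 4 rose and 4 fell, Sfrp4, Dkk4 and Sfrp5 being added to Wif1. Sfrp2, a soluble protein with a ligand-binding domain like that of Frizzled, read −0.76, −0.84 and −1.12 in CTRL and 1.15, 0.76 and 1.5 in OE. Every OE array was far above every CTRL array, with OE 3 highest. The rise was 2.05 on the log2 scale, or 4.13-fold (SE 0.18, 95% interval 1.63 to 2.47, adjusted p = 0.000468), and ranked 34 among the highest changes of all genes.

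Frzb, also known as Sfrp3, read −1.20, −1.17 and −0.79 in CTRL and 0.84, 0.88 and 0.86 in OE. Its OE arrays were nearly the same, and CTRL 3 stood apart from the other two controls towards OE. The rise was 3.76-fold (log2 change 1.91, SE 0.11, adjusted p = 0.000103). Dkk3, a divergent Dkk protein for which binding to the coreceptors is not established, read −0.95, −0.83 and −0.79 in CTRL and 1.33, 0.81 and 0.97 in OE. It rose 3.72-fold (log2 change 1.89, SE 0.13, adjusted p = 0.000187), with a wider spread among the OE arrays than among CTRL. Sfrp1, which like Sfrp2 binds Wnt proteins, read −0.74, −0.55 and −0.26 in CTRL and 0.49, 0.32 and 0.42 in OE. Here too CTRL 3 was the control nearest to OE, and the rise was 1.9-fold (log2 change 0.93, SE 0.12, adjusted p = 0.00189).

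Wif1, an antagonist that binds Wnt proteins through a domain of its own, went the other way. It read 0.71, 1.15 and 0.84 in CTRL and −0.76, −0.71 and −1.19 in OE. All OE arrays were far below all CTRL arrays, and Wif1 was 3.45-fold lower (log2 change −1.78, SE 0.16, 95% interval −2.15 to −1.42, adjusted p = 0.000461). Counted from the strongest fall, it ranked 18 of all genes. These 5 calls held whichever array was left out, under each scaling and in the one-way analysis of variance. The windows before the starts of Sfrp2 (chr3:83766071-83766320, plus strand), Frzb (chr2:80447397-80447646, minus strand) and Wif1 (chr10:121033754-121034003, plus strand) are shown because these genes changed most among the members with a window. None of the words searched occurred in them, so no letter is in capitals.
Sfrp2: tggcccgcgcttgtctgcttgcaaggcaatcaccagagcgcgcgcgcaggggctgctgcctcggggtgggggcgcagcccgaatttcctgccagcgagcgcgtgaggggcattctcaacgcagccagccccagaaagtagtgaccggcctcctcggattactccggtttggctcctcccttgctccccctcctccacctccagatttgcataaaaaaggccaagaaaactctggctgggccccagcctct
Frzb: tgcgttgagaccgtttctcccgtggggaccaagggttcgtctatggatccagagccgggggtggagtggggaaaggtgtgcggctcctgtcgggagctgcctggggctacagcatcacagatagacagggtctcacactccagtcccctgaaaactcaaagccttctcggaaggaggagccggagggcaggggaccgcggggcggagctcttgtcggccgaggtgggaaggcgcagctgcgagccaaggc
Wif1: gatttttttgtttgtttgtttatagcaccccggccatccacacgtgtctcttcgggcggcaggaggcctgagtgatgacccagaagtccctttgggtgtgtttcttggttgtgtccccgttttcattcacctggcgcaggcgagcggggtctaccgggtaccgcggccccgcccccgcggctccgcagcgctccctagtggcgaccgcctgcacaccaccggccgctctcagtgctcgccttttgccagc

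The other antagonists did not pass the test and changed by −0.19 to 0.03. Among them Sfrp4 was lower by 0.16 in the mean (95% interval −0.33 to 0.01, adjusted p = 0.15), with all OE arrays below CTRL. Dkk4, which binds the coreceptors, was at −0.19 (−0.40 to 0.02, adjusted p = 0.162) with overlapping arrays, and it passed without CTRL 3 at −0.28 and adjusted p = 0.0452. These intervals leave out changes of the size seen in Sfrp1, Sfrp2, Frzb, Dkk3 and Wif1. On the scale as deposited the antagonists divided into 5 genes with changes of 0.93 or more in size and 5 of 0.19 or less, and under the ribosomal centring Sfrp4 was at −0.36 and Dkk4 at −0.39.

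**Figure D2:**
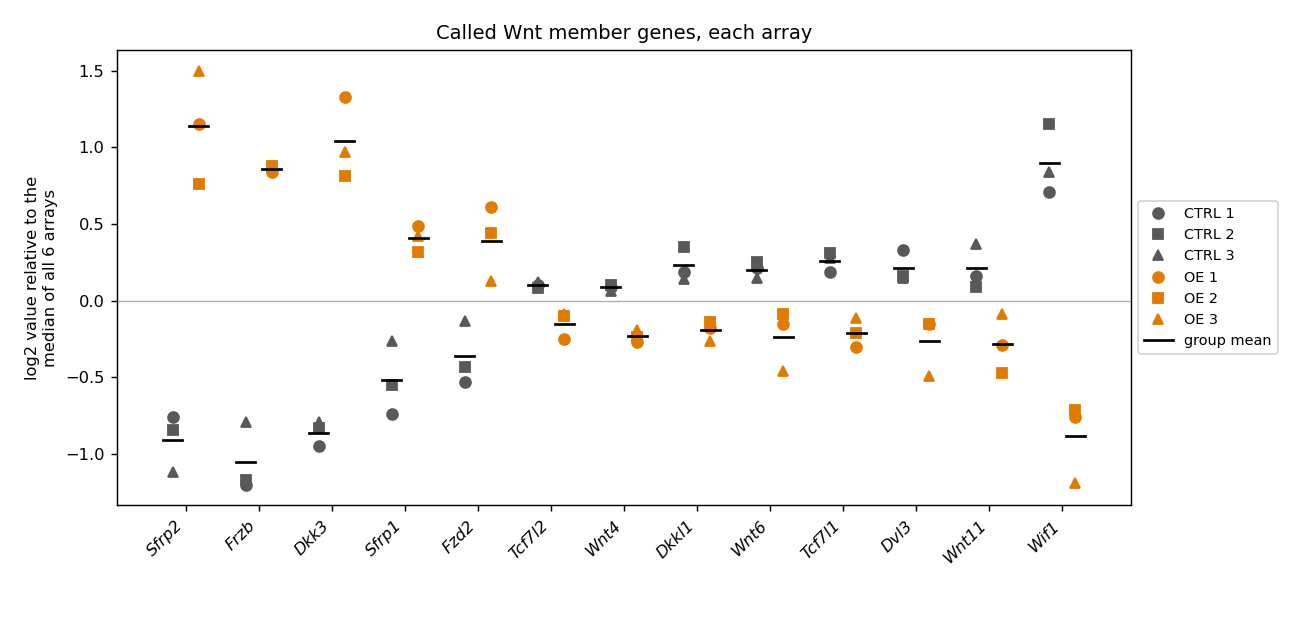
Log2 value relative to the median of all 6 arrays for each of the 13 called members, with 1 point per array, grey for CTRL and orange for OE, symbols for the array number and a black bar for the group mean. Every gene shows OE and CTRL arrays apart, with the widest gaps for Sfrp2, Frzb, Dkk3 and Wif1 and CTRL 3 nearest to OE for Frzb, Dkk3, Sfrp1 and Fzd2 and farthest for Sfrp2.

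None of the 3 genes for R-spondins and Porcn passed the test in limma or in the one-way analysis of variance, and 1 had an unadjusted p below 0.05. Porcn, the acyltransferase that adds the lipid to Wnt proteins, changed by 0.39 (95% interval 0.07 to 0.70, adjusted p = 0.0726), with OE 2 inside the range of CTRL. Without CTRL 2 it passed at 0.52 (adjusted p = 0.0289). R-spondins are secreted proteins that raise the amount of Wnt receptor at the cell surface. Rspo1 varied most among the members that were not called within CTRL, with a SD of 0.56 over 3 arrays, and its change of −0.41 had a 95% interval of −1.08 to 0.25 (adjusted p = 0.316). Rspo3 changed by −0.07 (−0.28 to 0.14, adjusted p = 0.605).

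Of the 6 cytoplasmic Dvl, Axin and Apc genes Dvl3 fell and the rest did not pass, or 16.7% called against 26.7% of all genes. Dvl3, one of the Dishevelled proteins that carry the signal from Frizzled, read 0.33, 0.16 and 0.15 in CTRL and −0.15, −0.15 and −0.49 in OE. CTRL 1 was the highest and OE 3 the lowest array. The fall was 1.39-fold (log2 change −0.48, SE 0.11, adjusted p = 0.017), and without CTRL 1 it was −0.42 with adjusted p = 0.0569. In the one-way analysis of variance its adjusted p was 0.0853. Its relative Dvl1 changed by 0.23 (95% interval 0.05 to 0.42, adjusted p = 0.0656), with all OE arrays above CTRL. Axin2, a feedback inhibitor that is widely read as a target of β-catenin signalling, was at −0.18 (−0.36 to 0.01, adjusted p = 0.141), and its groups overlapped.

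All 3 measured Tcf and Lef factors had every OE array below every CTRL array, as did 23.6% of all genes. Of these factors 2 fell, beside 11.8% of all genes. Tcf7l1, a member of the family known mainly as a repressor, read 0.19, 0.31 and 0.28 in CTRL and −0.30, −0.21 and −0.11 in OE. The groups were well apart, and the fall was 1.38-fold (log2 change −0.47, SE 0.08, adjusted p = 0.00445). Tcf7l2, a main nuclear partner of β-catenin, read 0.10, 0.08 and 0.12 in CTRL and −0.25, −0.10 and −0.09 in OE. It fell by 0.25 (SE 0.07, adjusted p = 0.0341), and this call was lost when any one array was left out, with adjusted p from 0.0525 to 0.108, and in the one-way analysis of variance (0.0542). Lef1 changed by −0.10 (−0.27 to 0.06, adjusted p = 0.315). The second start of Tcf7l2 is shown because it held a Tcf or Lef word 14 bases before the start (chr19:55895071-55895320, plus strand; capitals mark the match), whereas the first start held none.
Tcf7l2: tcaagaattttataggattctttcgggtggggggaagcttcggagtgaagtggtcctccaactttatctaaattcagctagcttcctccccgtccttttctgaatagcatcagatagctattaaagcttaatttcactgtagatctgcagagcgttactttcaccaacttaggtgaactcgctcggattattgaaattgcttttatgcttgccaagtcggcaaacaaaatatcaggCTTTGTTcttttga

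Dkkl1, known for its expression in the testis, read 0.19, 0.35 and 0.14 in CTRL and −0.18, −0.14 and −0.26 in OE. The arrays did not overlap, and it fell 1.34-fold (log2 change −0.42, SE 0.08, adjusted p = 0.0073). Its window held AGGTCA, with the first base 177 bases before the start, and is shown for this reason (chr7:45211884-45212133, minus strand; capitals mark the match).
Dkkl1: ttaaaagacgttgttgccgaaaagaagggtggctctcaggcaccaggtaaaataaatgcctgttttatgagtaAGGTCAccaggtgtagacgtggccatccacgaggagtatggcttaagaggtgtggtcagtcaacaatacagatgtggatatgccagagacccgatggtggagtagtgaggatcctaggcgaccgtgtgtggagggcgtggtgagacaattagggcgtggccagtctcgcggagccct
Fzd10os changed by −0.08 (adjusted p = 0.446). Transcripts of opposite strands at the Fzd10 locus are told apart only as far as the probe sets are specific, so its value and that of Fzd10 are uncertain in this respect.

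Because the gene values are means over probe sets, the probe sets were also tested one by one, with adjustment over all 34945. Among the 112 member probe sets 12 rose and 12 fell, beside 13.9% and 10.4% of all probe sets (24.4% in either direction), and none of the 36 members with several probe sets had calls in both directions. Wif1, Sfrp2, Wnt11, Dvl3 and Dkkl1 rested on 1 probe set each. Of the 8 called members with several, 3 had all of them called. These were Frzb, with changes of 1.64 and 2.18, Dkk3, with 1.79 and 2.00, and Tcf7l1, with −0.61 and −0.32.

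For the others the size depended on the probe set. Sfrp1 ranged from 0.17 to 1.42 over 5 probe sets, of which 4 were called, and Fzd2 changed by 0.27, 0.75 and 1.24, the latter pair called. Tcf7l2 had 1 of 4 probe sets called and ranged from −0.57 to 0.02. For Wnt4 and Wnt6 1 of 2 probe sets was called. Conversely, 4 members that were not called as genes had 1 called probe set, and the following were named after their values were seen. In Fzd1 a rise of 0.52 (adjusted p = 0.00587) stood beside −0.21, in Fzd6 a fall of 0.39 (adjusted p = 0.0304) stood beside 0.39 and −0.04, and in Wnt8b a fall of 0.45 (adjusted p = 0.00642) stood beside −0.03 and −0.02. The fourth was Fzd10, at −0.29 and adjusted p = 0.0494.

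**Figure D3:**
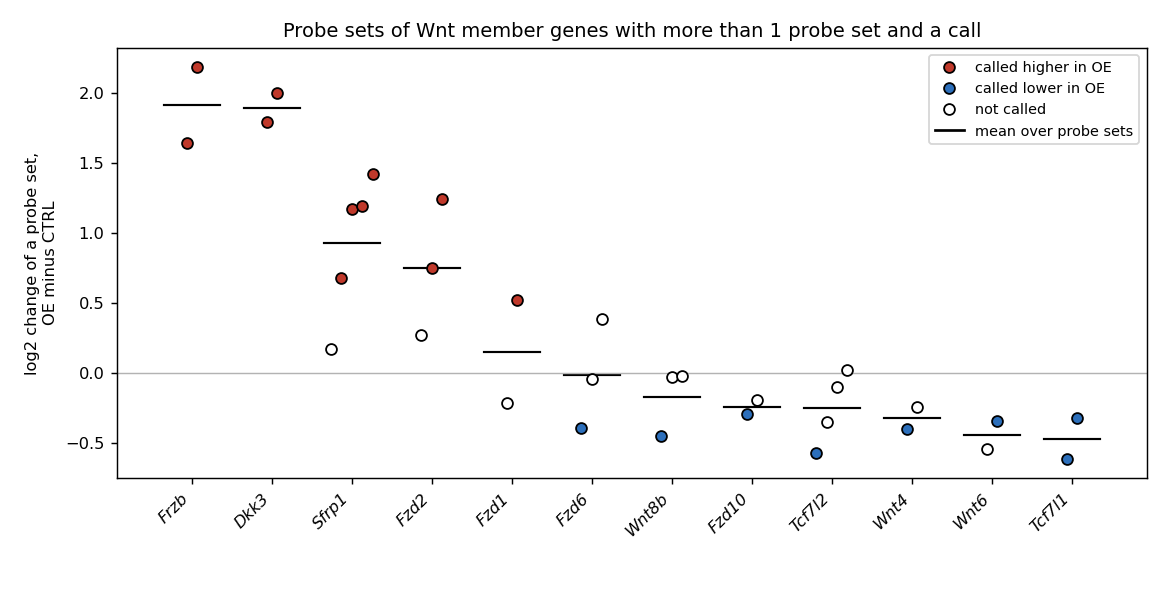
Log2 change of each probe set for the 12 members with more than 1 probe set and at least 1 of them called, with colour for the call of the probe set and a black bar for the mean over probe sets. Both probe sets of Frzb and of Dkk3 lie above 1.5, while those of Fzd1 and Fzd6 lie on either side of 0.

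Other genes of the pathway were taken from lists of 111 genes, of which 108 were measured, and the other 3 were not analysed here. Of these 17 rose and 10 fell, or 25.0% against 26.7% of all genes, with a median change of 0.02. Centred on ribosomal protein genes, the split was 12 risen and 44 fallen, against 1377 and 8757 of all 18193 genes. The list of known target genes had 6 of 16 risen and none fallen, with a median of 0.17, beside 14.9% risen and 11.8% fallen of all genes. At an unadjusted p below 0.05 there were 8 higher and 0 lower, beside 3712 and 3613 of all 18193 genes. Ccn5 and Ccn4, secreted matricellular proteins also called Wisp2 and Wisp1, were 5.97-fold (log2 change 2.58, SE 0.14, adjusted p = 9.8e-05) and 3.44-fold (log2 change 1.78, SE 0.21, adjusted p = 0.00124) higher. Id2, an inhibitor of helix-loop-helix factors, rose by 1.16 (SE 0.21, adjusted p = 0.00674), with CTRL 3 at −0.19 and the other controls at −0.87 and −1.01. Ccnd1, which encodes cyclin D1, rose by 0.56 (SE 0.13, adjusted p = 0.0169), and without CTRL 1, CTRL 2, OE 1 or OE 2 its adjusted p was 0.052 to 0.0572. Myc changed by 0.80 (95% interval 0.20 to 1.39, adjusted p = 0.0551) and passed without CTRL 1, at 1.01 and adjusted p = 0.0371. Axin2, a member that is itself a usual target, was not called.

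Beside 26.7% of all genes called in either direction, 2 of 6 genes on the side of ligand secretion rose. They were Wls, the carrier that brings Wnt proteins to the cell surface, by 0.79 (SE 0.11, adjusted p = 0.00225), and Atp6ap2, an accessory protein of the vacuolar proton pump, by 0.44 (SE 0.07, adjusted p = 0.00447). Both had every OE array above CTRL. Among 23 measured regulators at the membrane or outside the cell 3 rose, or 13.0%, and none fell. Those that rose were Tspan12, a partner of Fzd4, by 0.57 (adjusted p = 0.0281), the membrane inhibitor Apcdd1 by 0.54 (adjusted p = 0.0122) and Tpbg, another inhibitor, by 0.53 (adjusted p = 0.0114). The probe sets of Apcdd1 divided, with called ones at 0.95, 1.05 and 1.17 and uncalled ones at −0.13, 0.08 and 0.09. Tspan12 did not pass without CTRL 1, CTRL 2, OE 1 or OE 2, with adjusted p from 0.0606 to 0.09.

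The list labelled β-catenin and its destruction complex, which also held proteins that are not parts of the complex, showed 2 rises and 4 falls among 25. That was 24.0% called, against 26.7% of all genes. Csnk1g3, a casein kinase 1 isoform of the membrane, rose by 0.74 (SE 0.07, adjusted p = 0.000485), and Nkd2, which binds Dvl proteins, by 0.56 (SE 0.08, adjusted p = 0.00311). Its relative Nkd1 was at −0.13 (adjusted p = 0.225), with a single probe set called lower, at −0.40, and the others at −0.17 to 0.05. Ctnnb1, the gene of β-catenin, fell by 0.22 (SE 0.06, adjusted p = 0.0342), a call that was lost whichever array was left out (adjusted p from 0.0608 to 0.0923). A single probe set of Ctnnb1 was called, at −0.53, and the others changed by −0.02 and −0.11 without passing the test. Frat1, which binds Gsk3, fell by 0.34 (adjusted p = 0.0299) and did not pass without CTRL 1, CTRL 2, OE 2 or OE 3 (adjusted p from 0.0769 to 0.089). Gsk3b changed by −0.10 (adjusted p = 0.361), with 1 of its 6 probe sets higher and 2 lower.

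Nuclear partners showed 3 rises and 5 falls among 20, or 40.0% called against 26.7% of all genes. The corepressor relative Tle5 fell by 0.55 (SE 0.09, adjusted p = 0.00521), and the acetyltransferases Crebbp and Ep300 fell by 0.48 (adjusted p = 0.00733) and 0.47 (adjusted p = 0.00929).

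**Figure D4:**
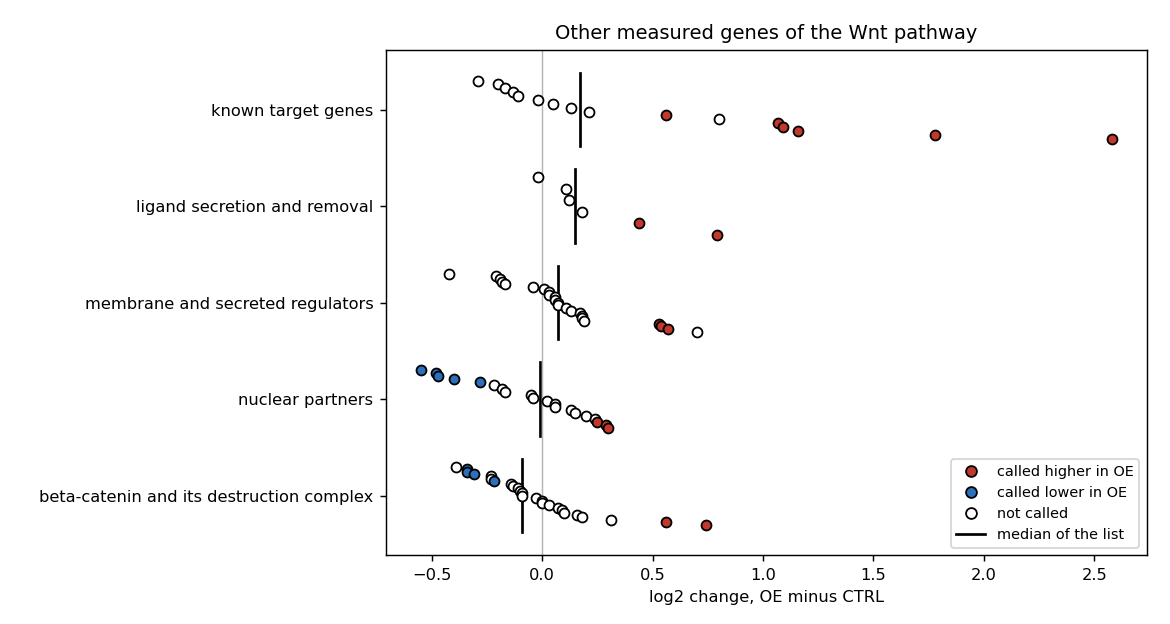
Log2 change of OE minus CTRL for 90 other measured genes of the pathway in 5 lists, 1 point per gene, with colour for the call and a black line for the median of each list. The known target genes extend furthest to the right, up to 2.58 for Ccn5, and the list of nuclear partners holds genes called in both directions. So does the list labelled β-catenin and its destruction complex, where the genes called higher are Csnk1g3, a membrane kinase, and Nkd2, which binds Dvl proteins.

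Markers of other cells of the ventricle moved between the groups as well, beside 14.9% of all genes risen and 11.8% fallen. All 10 markers of activated fibroblasts rose, with a median change of 2.20. Their mean over the list was −1.48 to −0.73 in CTRL and 0.81 to 1.04 in OE, led by Comp at 3.68 and Cilp at 3.36, both genes of extracellular matrix proteins. Of 12 markers of cardiac fibroblasts in general 5 rose and 3 fell, with a median of 0.27 and list means of −0.40 to −0.11 in CTRL and 0.07 to 0.23 in OE. CTRL 3 was the control nearest to OE in both fibroblast lists and in the smooth muscle and pericyte list described next. Among the members that rose it was nearest to OE for Frzb, Dkk3, Sfrp1 and Fzd2 and farthest from OE for Sfrp2. Without CTRL 3 all 4 antagonists that rose and Fzd2 were still called.

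Smooth muscle and pericyte markers divided, with 6 of 12 risen and 5 fallen, from Cnn1 at 4.94 to Abcc9 at −2.0, and Acta2 is also in the activated fibroblast list. List means were −0.37 to −0.07 in CTRL and 0.17 to 0.31 in OE. Macrophage markers had 6 of 12 risen and none fallen (−0.32 to −0.12 in CTRL, 0.02 to 0.37 in OE). Endothelial markers had 6 of 12 fallen and none risen (0.10 to 0.36 in CTRL, −0.20 to 0.00 in OE). Cardiomyocyte markers had 9 of 12 fallen, with Myh6 at −1.31, and 1 risen (0.21 to 0.29 in CTRL, −0.32 to −0.23 in OE). Of 8 epicardial and mesothelial markers 2 rose, and of 8 measured markers of T and B lymphocytes none passed in limma, while 2 were lower at an unadjusted p below 0.05. No defining marker can be said to be at 0, since the values hold no level. The part of these cell types in the changes of Sfrp2, Frzb, Dkk3, Sfrp1, Fzd2, Wif1 and the members that fell was not tested. Nor was it tested for the known target genes that rose, among them Ccn5 and Ccn4.

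**Figure D5:**
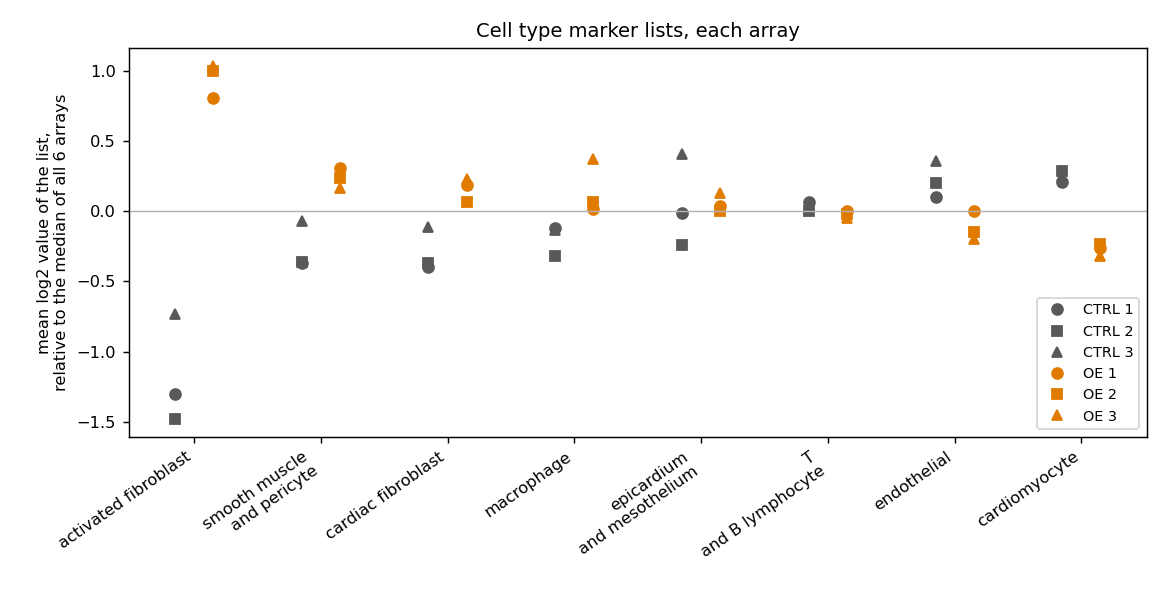
Mean log2 value of 8 cell type marker lists on each array, relative to the median of all 6 arrays, with grey for CTRL, orange for OE and symbols for the array number. The activated fibroblast list separates the groups most, with CTRL at −1.48 to −0.73 and OE at 0.81 to 1.04, and cardiomyocyte markers lie lower on every OE array.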

How the data were processed

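The authors extracted RNA from whole ventricles, hybridised Affymetrix mouse genome arrays and processed them in GeneSpring GX with RMA (version not given in the sources used here), quantile normalization and a baseline at the median of all samples. The deposited values run from −4.29 to 3.54 and were read as log2 values, though no source used here names the base. As each probe set has a median of 0 over the 6 arrays, levels and the expression filter of the methods could not be used. Of 45101 probe sets, 932 name several symbols, 9160 have no gene here and 64 are array controls. The other 34945 were averaged into 18193 genes (array annotation, symbols updated through gene IDs; 204 probe sets kept the old symbol). Precision is limited by 3 arrays per group.

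OE was compared with CTRL with limma 3.58.1 (lmFit, then eBayes; R 4.3.3), two-sided, without covariates, with Benjamini-Hochberg adjustment over all genes and a threshold of 0.05. One-way analysis of variance, which the methods name, and a fold limit of 1.2, which they state for a comparison with CTRL atria and which was applied here to ventricles, were run as alternatives. An exact permutation test of 3 against 3 cannot give p below 0.1. The other alternatives were array weights, other choices and scalings of probe sets, the replicate number as a block and leaving out each array. The fit was tested on simulated data. The replicates are separate animals, and no slide or scan batch is given.

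One list of the other pathway genes is counted in their total and not reported here by itself. The member genes and all gene and marker lists were chosen with earlier results of these data known. Genes named are all called members, the 2 with the lowest adjusted p among the uncalled of each large role group, all R-spondin, Porcn and Lef genes and Fzd10os; of other pathway genes, up to 3 called with the largest change per list and Ctnnb1, Gsk3b, Ccnd1, Myc, Wls, Nkd1 and Nkd2; and up to 2 called genes per marker list. Tables and plots used Python 3.11.15, pandas 2.3.3 and matplotlib 3.10.9.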

Additional observations from a re-analysis of the deposited data

How the results depend on the processing

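The calls of Sfrp2, Frzb, Dkk3, Sfrp1, Wif1, Wnt4, Tcf7l1 and Dkkl1 held under every alternative run for single genes. In the one-way analysis of variance 4 members rose (Fzd2 lost) and 4 fell (Dvl3, Tcf7l2, Wnt11 and Wnt6 lost), against 5 and 8. With each array centred on its 42 measured ribosomal protein genes, whose own median change was 0.21, 33 members fell. Array weights, centring on the array median and leaving out less specific probe sets kept all 13 calls. The ribosomal centring moved the median change of all genes from −0.03 to −0.23 and kept them too. Of all genes, 1437 rose and 1125 fell in the analysis of variance and 1377 rose and 8757 fell with that centring, against 2709 and 2152. For the other pathway genes (17 risen, 10 fallen) these were 10 and 5 in the analysis of variance and 44 fallen with the centring; 26 rose with the probe set of largest variance, and 27 rose and 20 fell when probe sets were tested, a setting that gives no value per gene.

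Leaving out single arrays gave 5 to 6 members risen and 5 to 8 fallen, the lowest without CTRL 1. The ranges were 12 to 15 risen and 6 to 9 fallen for other pathway genes, the lowest falls without CTRL 1 and without OE 2, and 1830 to 2371 risen and 1243 to 1731 fallen for all genes, where 1400, 1243 and 1402 fell without CTRL 1, OE 1 and OE 3. The sign turned for Rspo3 without OE 1 (0.00, adjusted p = 0.978, with −0.14 as the other end of its range without OE 3), Fzd3 with the ribosomal centring (−0.07, adjusted p = 0.413) and Gsk3b with the probe set of largest variance (0.47, adjusted p = 0.0094). That probe set also ended the call of Wnt6 (−0.54, adjusted p = 0.0994) and gave calls of Fzd1 and Wnt8b. The 1.2-fold limit removed Tcf7l2 and Ctnnb1 among the named genes. Id2, Apcdd1, Tpbg, Ep300, Ccnd1, Tspan12 and Frat1 were lost in the analysis of variance (adjusted p from 0.0543 to 0.129). The causes were not tested.

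With the replicate number as a block, 5 members rose and 8 fell: Tcf7l2 was lost (adjusted p = 0.0664) and Rspo1 gained (adjusted p = 0.0389). Of all genes 2369 rose and 1679 fell. Deviations of same-numbered arrays correlated at 0.07, −0.117 and 0.025, and not every array correlated best with its own number. With 3 arrays per group these correlations cannot decide whether same-numbered arrays belong together. The labels give the numbers only as replicate numbers.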
